A study of Rattus norvegicus with 4 samples.

Results

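The 9 genes described here encode elastin, the microfibril and fibulin proteins that surround it, and enzymes that cross-link matrix proteins: Eln, Fbn1, Fbln2, Fbln5, Ltbp2, Mfap4, Mfap5, Lox and Tgm2. They were measured in rat hepatic stellate cells, the vitamin A-storing cells of the space between hepatocytes and sinusoid, which turn into matrix-producing myofibroblasts in injury, in a study of endoglin, a co-receptor of the TGF-beta family. Members were found by the gene name of the array probe, which gave 12 probes out of 41012 gene probes, and all 9 genes were among the 25546 genes tested. The genes were picked with their ratios on these same arrays already known. Their own ratios are therefore given as a description, without p-values.

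The Cy5 dye marked RNA of endoglin siRNA cells or of untreated cells, and the Cy3 dye marked RNA of control siRNA cells on every array. The study comprised 4 arrays on 1 slide: 2 with endoglin siRNA cells and 2 with untreated cells. Within a group, 1 array held RNA of a single animal and the other that of a pool of 3 animals, whose cells the series' design text describes as separately transfected. All cells were stellate cells taken from rats, not a cell line. The sources used here give no rat strain, age, days in culture, siRNA sequence or time from transfection to harvest. They also do not say whether the pool included the single animal, or whether arrays shared a control RNA. With 2 arrays a group the replicates limit every value, and the p-values measure only the spread between these arrays.

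Elastic fibres form when tropoelastin, the product of Eln, is deposited on a scaffold of fibrillin microfibrils and its lysines are oxidised and cross-linked. Fibulin-5 (Fbln5) links tropoelastin to cells and to the cross-linking enzymes, and fibulin-2 (Fbln2), LTBP-2 (Ltbp2), MFAP-4 (Mfap4) and MFAP-5 (Mfap5) bind fibrillin-1 (Fbn1) or elastin itself. Lysyl oxidase (Lox) cross-links both elastin and collagen, and transglutaminase 2 (Tgm2) joins glutamine and lysine side chains of matrix proteins. In the injured liver elastic fibres build up in fibrous septa, and stellate cells and portal fibroblasts are regarded as their sources.

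Promoter sequences of 5 of the 9 genes were found in the RefSeq table of build GRCr8, which gives 250 bases before and 50 bases after a gene's start. Since the TGF-beta family signals through Smad proteins, the windows were searched on both strands for the Smad half-site CAGAC, which reads GTCTG on the other strand. Shown in capitals below are these letters in Ltbp2 (3 matches), which had a low ratio after endoglin siRNA, in Fbln5 (2 matches), which had a high one, and in Mfap5 (0 matches), which had a low one.
Ltbp2: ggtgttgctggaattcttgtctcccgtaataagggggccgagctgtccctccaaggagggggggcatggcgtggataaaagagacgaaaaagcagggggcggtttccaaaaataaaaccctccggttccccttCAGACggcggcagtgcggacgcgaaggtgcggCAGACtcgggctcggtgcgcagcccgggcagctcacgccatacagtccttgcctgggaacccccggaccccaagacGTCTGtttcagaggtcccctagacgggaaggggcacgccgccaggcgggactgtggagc
Fbln5: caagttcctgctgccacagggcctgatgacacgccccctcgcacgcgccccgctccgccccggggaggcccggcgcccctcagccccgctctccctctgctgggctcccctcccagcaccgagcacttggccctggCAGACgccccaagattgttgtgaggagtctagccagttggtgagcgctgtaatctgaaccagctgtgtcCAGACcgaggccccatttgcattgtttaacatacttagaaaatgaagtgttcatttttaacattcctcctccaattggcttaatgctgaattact
Mfap5: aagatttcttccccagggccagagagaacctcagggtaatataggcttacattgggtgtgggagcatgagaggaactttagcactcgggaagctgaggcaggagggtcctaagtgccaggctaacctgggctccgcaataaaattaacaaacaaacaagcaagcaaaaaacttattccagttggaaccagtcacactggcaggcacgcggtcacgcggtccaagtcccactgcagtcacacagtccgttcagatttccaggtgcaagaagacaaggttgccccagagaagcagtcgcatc
In GRCr8 these windows are chr6:110257249-110257548 on the minus strand (Ltbp2), chr6:126742657-126742956 on the minus strand (Fbln5) and chr4:157399669-157399968 on the plus strand (Mfap5). Fbn1 and Fbln2 each had 1 match. The letters CAGAC stood in 50.1% of the 33469 rat promoters of the same length, so 4 of 5 members with a match is a description of these windows and not a property of the group. The GC box GGGCGG was found in Fbln2 (3 times), Fbln5 and Ltbp2, against 33.1% of all promoters. The AP-1 motif TGANTCA (7.33% of all promoters) and the TATA box TATAAA (14.2%) stood in 0 of the 5 windows.

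The arrays carried stellate cell RNA by their markers: 13 of 14 measured stellate cell markers, among them Des, Lrat, Vim and Pdgfrb, were well above background, as called by the scanner software, in both dyes on all 4 arrays. Gfap was well above background in Cy5 on 3 arrays and in Cy3 on 1. Kupffer cell and macrophage markers were also measured (14 genes), and their summed level followed the RNA source. In the control siRNA RNA it was 9759 and 11110 in the pools, against 36590 and 39100 in the 1-animal RNA, on a linear scale after normalization. In both dyes on all 4 arrays, 11 of these 14 were well above background, as were 3 of 9 hepatocyte genes (Cyp2e1, Hnf4a and Fgb), 2 of 6 cholangiocyte genes (Sox9 and Spp1), 2 of 8 endothelial and 6 of 11 portal fibroblast and mesothelial genes. Of the hepatocyte genes, Tat and Alb were well above background in Cy5 on 1 array each, and of the cholangiocyte genes Epcam was so on 0. Spots well above background made up 61.9% to 93.3% of the 43379 gene spots in a dye, with the highest share on the untreated pool. On the pooled arrays 10 spots (6 on the untreated and 4 on the endoglin siRNA array) had a signal far below their local background (limit -100). These spots disturbed the background fit, and values from a fit without them are given where they differ most.

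Eng, the target of the siRNA, fell in endoglin siRNA cells. It had a log2 ratio to control siRNA of -3.08 (1 animal) and -1.72 (pool) in endoglin siRNA cells and of -0.36 and -0.41 in untreated cells. Its mean in endoglin siRNA cells was -2.40 ± 0.96 (SD, n = 2 arrays). This mean passed limma's test (adjusted p = 0.00513), with a standard error of 0.26 from the fit to both groups, not from these 2 arrays alone. In all ratios the direction follows the dyes named in the labels; the deposited value table has the opposite sign for both untreated arrays. Because control siRNA RNA was always in Cy3, an effect of the dye on a probe cannot be told apart from its ratio to control siRNA, but it is common to both groups.

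Endoglin siRNA cells had lower mean levels than control siRNA cells for 7 of the 9 genes, namely Tgm2, Ltbp2, Mfap4, Fbn1, Mfap5, Lox and Fbln2. Fbln5 was higher and Eln was near 0. The log2 ratios ran from -1.53 (Tgm2) to 0.95 (Fbln5) with a median of -0.73, against a median of 0.02 over all genes tested. In limma, 6 members passed as lower and 1 (Fbln5) as higher, where 8.11% of all genes passed (2.86% lower and 5.25% higher). This contrast was used to choose the members, so nothing is read from that count. With median centring in place of loess, which moves the median of all genes to 0.32, only 4 of the 9 genes stayed lower, and Fbn1 (0.48), Lox (0.69) and Mfap5 (0.03) had positive ratios.

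Markers of the stellate cell and of other liver cells also differed in this comparison, in which 5.25% of all genes passed as higher and 2.86% as lower. Of 14 stellate cell markers 4 rose (among them Cygb by 0.76, Tcf21 by 0.45 and Vim by 0.36) and Des, the muscle-type intermediate filament desmin, fell by 0.61, with adjusted p-values of 0.00854 to 0.0277 in limma. Of 4 cholangiocyte markers Sox9 (-1.09, adjusted p = 0.0304) and Spp1 (-0.49, adjusted p = 0.0413) fell. Single markers rose in the other lists: Kdr of 7 endothelial (0.87, adjusted p = 0.0311), Cd14 of 14 Kupffer cell and macrophage (0.55, adjusted p = 0.0179), Cyp2e1 of 6 hepatocyte (0.48, adjusted p = 0.0108) and Slit2 of 10 portal fibroblast and mesothelial markers (0.32, adjusted p = 0.0495). The summed Kupffer cell and macrophage level was 40000 (1 animal) and 11740 (pool) in endoglin siRNA cells, against 36590 and 9759 in control siRNA cells. That of portal fibroblast and mesothelial markers was 5148 and 5304, against 5055 and 5045. That of stellate cell markers was 494800 and 395600, against 372300 and 306600, and that of cholangiocyte markers was 15440 and 3553, against 19730 and 5529. Endothelial markers summed to 10320 and 2205, against 6826 and 2028, and hepatocyte markers to 1765 and 1851, against 1685 and 1682. Such linear sums follow the brightest genes of a list and do not measure amounts of a cell type. In 1-animal endoglin siRNA cells Spp1 had a log2 level of 13.83, and Sox9, the next cholangiocyte marker, 8.64. Kdr and Fcgr2b stood there at 12.08 and 12.29, and the other endothelial markers at 7.69 or less. The part of these cells in the members' ratios was not tested.

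**Figure D1:**
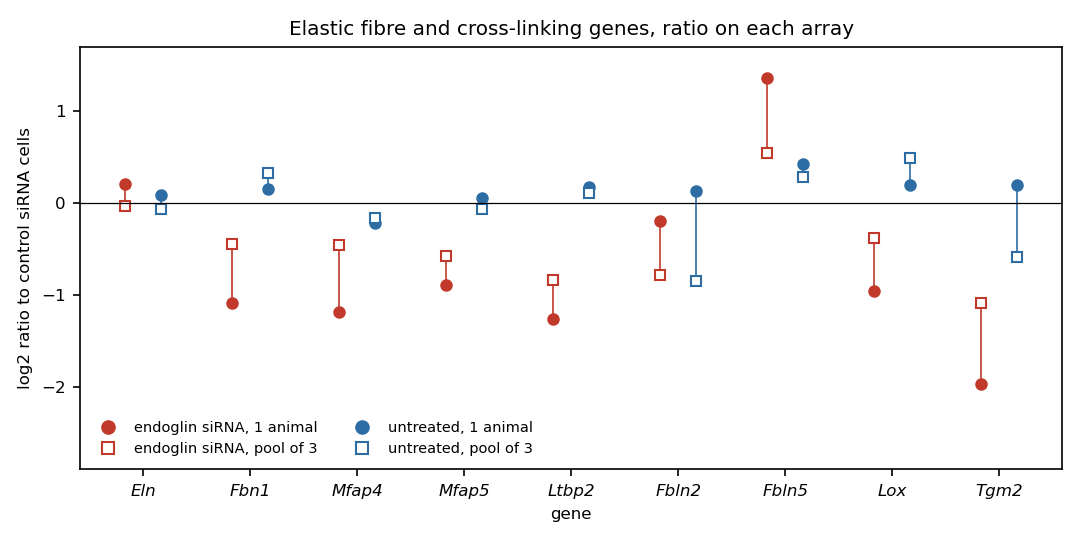
Log2 ratio to control siRNA cells (vertical axis) of the 9 genes on each array, with endoglin siRNA in red left of untreated in blue; circles stand for 1 animal, squares for the pool of 3 animals, and lines join the arrays of a group. The 2 red points of Tgm2, Ltbp2, Mfap4, Fbn1, Mfap5 and Lox lie below both blue points of the same gene. Those of Fbln5 lie above, and those of Eln and Fbln2 overlap the blue ones. The genes were picked with these ratios known, and the share of all genes separated in this way was not counted. Nothing is therefore read from the separation.

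Of the cross-linking enzymes, Tgm2 had the lowest ratio of the 9 genes. Its log2 ratio was -1.97 (1 animal) and -1.09 (pool) in endoglin siRNA cells and 0.20 (1 animal) and -0.59 (pool) in untreated cells. Both endoglin siRNA arrays lay below both untreated arrays. The share of all genes separated in this way was not counted, so nothing is read from such a separation here or for the genes below. The mean of -1.53 ± 0.62 (SD, n = 2) corresponds to a 2.89-fold lower level than in control siRNA cells. In normalised levels, the log2 brightness of 1 dye after normalization, Tgm2 stood at 14.04 and 14.42 in endoglin siRNA cells, against 16.01 and 15.51 in the control siRNA cells of the same arrays. The endoglin siRNA levels of both RNA sources were thus the 2 lowest of the 8 measured, as the plot of levels in both dyes shows. The single Tgm2 probe lies at chr3:148738776-148738835 in the coordinates of the array files, which state no genome build. Probes could therefore not be placed in exons or untranslated regions.

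Lox was represented by 2 probes whose starts lie 2771 bases apart, at chr18:47931603-47931662 and chr18:47934374-47934433 in the same coordinates. The brighter probe gave -0.96 (1 animal) and -0.38 (pool) in endoglin siRNA cells, against 0.19 and 0.49 in untreated cells. Its mean in endoglin siRNA cells was -0.67 ± 0.41 (SD, n = 2). The dimmer probe gave -1.07 and -0.63 in endoglin siRNA cells, against -0.08 and -0.13 in untreated cells. Both probes therefore placed the endoglin siRNA arrays below the untreated ones, but they disagreed in sign in untreated cells. Without the 1-animal endoglin siRNA array the brighter probe kept a ratio of -0.38 and did not pass in the fit.

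Fbn1 encodes fibrillin-1, the main structural protein of the microfibril. Its 2 probes start 127 bases apart, at chr3:112514235-112514294 and chr3:112514362-112514421. The brighter probe gave -1.09 (1 animal) and -0.45 (pool) in endoglin siRNA cells, against 0.15 and 0.33 in untreated cells, and the dimmer gave -1.14 and -0.65, against 0.14 and 0.38. On both probes the groups did not overlap, and control siRNA cells lay between them. The means of endoglin siRNA cells were -0.77 ± 0.45 and -0.90 ± 0.35 (SD, n = 2). Without the 1-animal array the brighter probe did not pass in the fit.

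Ltbp2 encodes a member of the latent TGF-beta binding protein family that, unlike its relatives, does not bind latent TGF-beta and attaches to fibrillin-1. It had the second lowest mean, with -1.26 (1 animal) and -0.84 (pool) in endoglin siRNA cells, against 0.17 and 0.10 in untreated cells. The mean of -1.05 ± 0.30 (SD, n = 2) is a 2.07-fold lower level than in control siRNA cells. Its probe, at chr6:108830258-108830317, had the levels 8.30 and 11.16 in endoglin siRNA cells and 9.56 and 11.99 in their control siRNA cells. In untreated cells the levels were 10.91 and 12.21, and in the control siRNA cells of those arrays 10.74 and 12.10. Between the 1-animal arrays the control siRNA level of Ltbp2 thus differed by -1.18 (endoglin siRNA array minus untreated array), while the standard deviation of that difference over all genes was 0.27. The same difference between the pooled controls was -0.11 for Ltbp2. The sources used here do not say whether the 1-animal arrays used the same control RNA.

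Mfap4 and Mfap5 encode glycoproteins of the microfibril. Mfap4 gave -1.19 (1 animal) and -0.46 (pool) in endoglin siRNA cells, against -0.22 and -0.17 in untreated cells. Mfap5 gave -0.89 and -0.58 in endoglin siRNA cells, against 0.05 and -0.06 in untreated cells. Endoglin siRNA arrays lay below untreated arrays for both genes. The pooled endoglin siRNA array was among those with the disturbed background fit. Without the disturbed spots it gave -1.27 for Mfap4 and -1.05 for Mfap5, so that the 1-animal and pooled arrays were close. The means of endoglin siRNA cells were then -1.23 and -0.97, against -0.83 ± 0.52 and -0.73 ± 0.22 (SD, n = 2) with them. The log ratios of Feature Extraction, the scanner software, gave -1.54 and -1.08.

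The fibulins differed from each other. Fbln5 was the member with the highest ratio, 1.36 (1 animal) and 0.55 (pool) in endoglin siRNA cells, against 0.43 and 0.28 in untreated cells. Both endoglin siRNA arrays lay above both untreated arrays, and all 4 ratios were positive. The mean of 0.95 ± 0.57 (SD, n = 2) is a 1.94-fold higher level than in control siRNA cells, and the mean in untreated cells was 0.35 ± 0.11 (SD, n = 2). In normalised levels the 1-animal array had 12.75 in endoglin siRNA cells and 11.39 in control siRNA cells. The pooled array had 12.30 and 11.75. The pool thus had the smaller ratio of the 2 RNA sources, and without the 1-animal array the mean was 0.55. The probe lies at chr6:126030335-126030394.

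Fbln2 had ratios that differed between the RNA sources in both groups. Its brighter probe gave -0.19 (1 animal) and -0.79 (pool) in endoglin siRNA cells, against 0.13 and -0.85 in untreated cells, so the groups overlapped. The dimmer probe gave 0.14 and -0.20 in endoglin siRNA cells, against 0.13 and -0.30 in untreated cells, and in Cy3 it was not well above background on either 1-animal array. Without the disturbed spots the brighter probe stood at -1.38 on the pooled endoglin siRNA array and -1.03 on the pooled untreated array, and the mean of endoglin siRNA cells was -0.79 in place of -0.49. The dimmer probe then stood at -1.14 on the pooled endoglin siRNA array and -0.85 on the pooled untreated array, with a mean of -0.50 in endoglin siRNA cells in place of -0.03. On the 1-animal arrays even the brighter probe was dim, with a Cy3 signal 2.12 and 2.25 times the local background, so the offset added before taking logs draws its ratios there towards 0. In the untreated pool Fbln2 (-0.85) and Tgm2 (-0.59) had the lowest ratios of the 9 genes.

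Eln, the gene of tropoelastin, had ratios near 0. They were 0.20 (1 animal) and -0.04 (pool) in endoglin siRNA cells, against 0.09 and -0.07 in untreated cells. The signal was low: the scanner read 116 to 177 units in Cy3 over a local background of 35 to 41, and the offset draws such ratios towards 0. Without the disturbed spots the pooled endoglin siRNA array stood at -0.18. A small change of Eln could not be detected at this brightness.

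**Figure D2:**
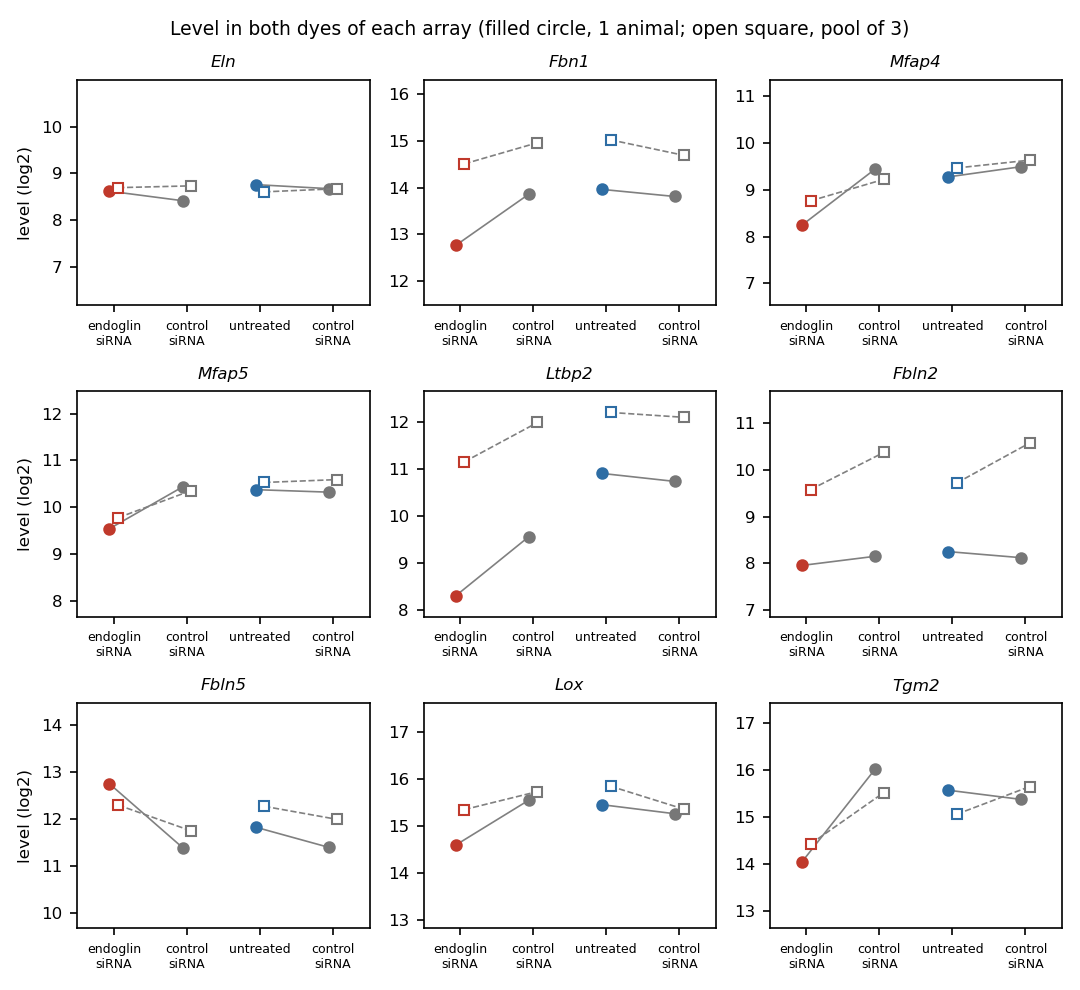
Normalised level (log2) of each gene in both dyes of each array, with the Cy5 RNA of endoglin siRNA or untreated cells left of the control siRNA RNA (Cy3) of the same array; filled circles and solid lines are 1 animal, open squares and dashed lines the pool of 3, and every panel spans the same log2 range. Fbln2, Ltbp2 and Fbn1 lie higher in the pool than in the 1-animal RNA in every condition, and Tgm2 lies below its control on both endoglin siRNA arrays.

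In untreated cells the 9 mean log2 ratios to control siRNA cells lay between -0.36 (Fbln2) and 0.35 (Fbln5), 5 were positive, and the median was 0.01, against 0.00 over all genes. In limma 0 of the 9 passed, where 0.697% of all genes passed (0.431% higher and 0.266% lower). Without either endoglin siRNA array the ratio of Fbln5 in untreated cells stayed at 0.35. Nothing is read from the count of calls, since the members were picked with their ratios on these arrays known. The sign was the same on both arrays for 5 of the 9 genes. In 4 genes (Eln, Fbln2, Mfap5 and Tgm2) the 1-animal array was above 0 and the pooled array below it.

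Set against untreated cells, endoglin siRNA cells again had lower values for 7 of the 9 genes, or for 4 with median centring. This comparison uses the same endoglin siRNA arrays as the one with control siRNA, so it is no separate evidence. The difference of log2 ratios within an RNA source was -2.17 (1 animal) and -0.50 (pool) for Tgm2, -1.43 and -0.94 for Ltbp2, and -1.24 and -0.78 for Fbn1. It was -1.15 and -0.87 for Lox, -0.94 and -0.52 for Mfap5, and 0.93 and 0.27 for Fbln5. For these 6 genes both RNA sources thus pointed the same way, with the larger difference in the 1-animal RNA under the reported setting. Without the disturbed spots Mfap5 stood at -0.89 (1 animal) and -1.05 (pool) in endoglin siRNA cells. In untreated cells Mfap5 then stood at 0.053 and -0.004, so its larger difference was in the pool. Markers of other cells differed here too. Of 14 Kupffer cell and macrophage markers 13 had values below 0, with a median of -0.61 and Lyz2 lowest (-2.22, adjusted p = 0.129), and C1qa passed limma's test (-1.09, adjusted p = 0.0386). Their summed level was 40000 (1 animal) and 11740 (pool) in endoglin siRNA cells, against 74970 and 26980 in untreated cells. Of the cholangiocyte list Spp1 fell (-1.67, adjusted p = 0.0258). The part of these cells in the members' differences was not tested. Mfap4 had a mean difference of -0.63, and -1.04 without the disturbed spots. In limma 0 of the 9 passed, where 0.0861% of all genes passed (0.0352% higher and 0.0509% lower). Eng, the target of the siRNA, did not pass in this comparison either (-2.02, adjusted p = 0.179). A gene that did not pass here is therefore not shown to be unchanged. Without the disturbed spots Ltbp2, Mfap4 and Mfap5 passed, where 0.775% of all genes did. Ltbp2 also passed under the other probe filters (0.135% of all genes without the filter on dim probes, 0.126% with the strictest). Calls of members also appeared when either endoglin siRNA array was left out, which leaves 1 array in that group. The members were chosen with their ratios on these arrays known, so nothing is read from these calls.

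Other genes of the elastic fibre and of microfibrils had ratios between -0.49 and 0.42 in endoglin siRNA cells. Of 21 such genes 17 were on the array and 14 were tested. This list, and those of cross-linking enzymes and of elastin degradation below, were chosen with earlier results of these arrays known. Their p-values and calls are therefore given as a description, and nothing is read from the counts. Emilin1, a glycoprotein at the interface of elastin and microfibrils, fell in endoglin siRNA cells by 0.49 on the log2 scale (adjusted p = 0.00725, limma). Adamtsl2, a microfibril-binding glycoprotein, fell by 0.46 (adjusted p = 0.0137), and Efemp2, or fibulin-4, which brings lysyl oxidase to tropoelastin, fell by 0.39 (adjusted p = 0.0349). Adamtsl5, of the same family as Adamtsl2, rose by 0.42 (adjusted p = 0.0194). The other 10 did not pass, where 2.86% of all genes passed as lower and 5.25% as higher. The list's median was -0.16, against 0.02 for all genes. Without the 1-animal endoglin siRNA array Adamtsl5, Adamtsl2 and Efemp2 no longer passed (adjusted p = 0.123, 0.0809 and 0.167), and neither did Efemp2 without the pooled one (adjusted p = 0.0668). Against control siRNA, 0 of the 14 passed limma's test in untreated cells (3 at an unadjusted p under 0.05, as had 13.6% of all genes), and the largest values were Ltbp1 (0.48, adjusted p = 0.103) and Ltbp4 (0.34, adjusted p = 0.279). Between endoglin siRNA and untreated cells 0 of the 14 passed (6 at an unadjusted p under 0.05, as had 8.22% of all genes), with Adamtsl2 at -0.63 (adjusted p = 0.136) and Emilin1 at -0.61 (adjusted p = 0.0921) largest in size. Without the pooled endoglin siRNA array both passed (adjusted p = 0.0305 and 0.0339), and without either endoglin siRNA array Ltbp1 passed in untreated cells (adjusted p = 0.0178).

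Among 18 other cross-linking and matrix-modifying enzymes, 16 were on the array and 13 were tested. Of these 4 fell in endoglin siRNA cells and 0 rose, where 2.86% of all genes passed as lower and 5.25% as higher. Pxdn (peroxidasin, which forms cross-links in basement membrane collagen) stood at -0.55 (adjusted p = 0.0119) and Plod2 (the hydroxylase of collagen telopeptide lysines) at -0.53 (adjusted p = 0.00963). Loxl1, the lysyl oxidase relative needed for elastic fibre upkeep, stood at -0.45 (adjusted p = 0.0315) and Plod1 at -0.27 (adjusted p = 0.0376). All 4 had negative ratios on both endoglin siRNA arrays. In untreated cells the ratio to control siRNA was -0.20 for Plod1, -0.14 for Plod2, -0.07 for Pxdn and 0.33 for Loxl1. Plod1 thus differed by only -0.08 between endoglin siRNA and untreated cells. The list's median was -0.18, against 0.02 for all genes. Without the 1-animal endoglin siRNA array none of the 4 passed (adjusted p = 0.0541 for Pxdn, 0.052 for Plod2, 0.211 for Loxl1 and 0.208 for Plod1), and Plod1 also lost its call without any other single array (adjusted p = 0.0638 to 0.0863). In untreated cells 0 of the 13 passed limma's test against control siRNA (5 at an unadjusted p under 0.05, as had 13.6% of all genes). The largest values were those of Loxl1 (0.33, adjusted p = 0.186) and Pcolce (0.23, adjusted p = 0.254). Between endoglin siRNA and untreated cells 0 of the 13 passed (4 at an unadjusted p under 0.05, as had 8.22% of all genes). The largest in size were Loxl1 at -0.78 (adjusted p = 0.155) and Pxdn at -0.47 (adjusted p = 0.284). Without the pooled endoglin siRNA array both of these passed (adjusted p = 0.0202 and 0.0348). With median centring the ratios of Emilin1, Adamtsl2, Efemp2, Pxdn, Plod2, Loxl1 and Plod1 in endoglin siRNA cells were positive.

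**Figure D3:**
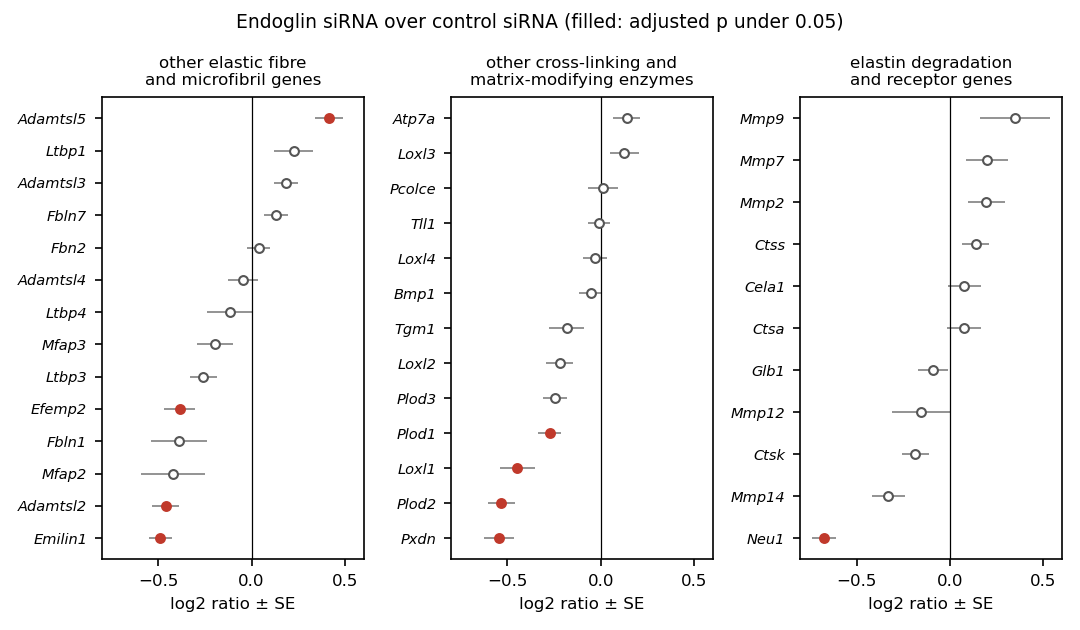
Log2 ratio of endoglin siRNA over control siRNA cells (horizontal axis, mean of 2 arrays with the standard error of the fit) for genes of 3 further lists; filled points passed limma's test. Emilin1, Adamtsl2, Efemp2, Pxdn, Plod2, Loxl1, Plod1 and Neu1 passed as lower and Adamtsl5 as higher, all within 0.7 of 0.

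Of 13 genes of elastin degradation and the elastin receptor 11 were tested. Neu1, the sialidase subunit of the elastin receptor complex, fell in endoglin siRNA cells by 0.67 (adjusted p = 0.00448), and the other 10 did not pass. In untreated cells 2 rose against control siRNA: Ctss (cathepsin S, an elastin-degrading protease) by 1.18 (adjusted p = 0.00595) and Mmp12 (macrophage elastase) by 1.05 (adjusted p = 0.0398, but 0.0505 without background correction). Ctss was also the gene that passed between endoglin siRNA and untreated cells, at -1.04 (adjusted p = 0.0263). Beside these values, 6 of 14 Kupffer cell and macrophage markers passed as higher in untreated cells, where 0.431% of all genes did. Their median log2 ratio was 0.89. Their summed level was 74970 (1 animal) and 26980 (pool) in untreated cells, against 39100 and 11110 in the control siRNA cells of the same arrays. The part of these cells in the Ctss and Mmp12 values was not tested, and in RNA of mixed cells fewer cells of a type and less RNA per cell cannot be told apart. Both Ctss and Mmp12 lost the call against control siRNA without the pooled untreated array (adjusted p = 0.111 and 0.142), and Ctss lost the one against endoglin siRNA cells without either untreated array (adjusted p = 0.15 and 0.26). Neu1 had a ratio of 0.44 with median centring.

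Fbln2, Ltbp2 and Fbn1 had higher levels in the pool than in the 1-animal RNA. In the control siRNA RNA, Fbln2 had a normalised level of 10.36 and 10.57 in the pools (endoglin siRNA and untreated arrays), against 8.15 and 8.12 in the 1-animal RNA. This is 4.63-fold and 5.45-fold higher in the pool. The scanner signals minus local background, before any normalization, were 829 and 797 units in the pools, against 42.6 and 44.8 for 1 animal, a 19.5-fold and 17.8-fold difference. The offset shrinks the normalised fold of a dim probe. Ltbp2 was 5.4-fold and 2.58-fold higher in the pool after normalization (8.8-fold and 2.9-fold in signals minus background), and Fbn1 was 2.14-fold and 1.84-fold higher. By each gene's brightest probe, Fbln2 and Ltbp2 were the 2 of 9 members at least 2-fold apart in both pairs of arrays. Of all genes, 1.33% were that much higher and 1.47% that much lower in the pool. The dimmer Fbn1 probe was also more than 2-fold higher in both pairs (levels of 14.27 and 14.15, against 13.07 and 13.07). The dimmer Fbln2 probe fell short of 2-fold in both (8.24 and 8.40, against 7.50 and 7.45). The other 6 members (Eln, Fbln5, Mfap4, Mfap5, Lox and Tgm2) lay within 0.6 of 0 on the log2 scale. A control RNA of 1 animal and 1 of a pool are single RNAs, so this comparison carries no test.

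Markers of other cells moved with the RNA source as well. Of 14 Kupffer cell and macrophage markers, 7 were at least 2-fold lower in the pool in both pairs, with a median of -1.40 in either pair. Of 10 portal fibroblast and mesothelial markers, 2 (Msln and Upk1b) were at least 2-fold higher, 1 (Entpd2) was at least 2-fold lower, and the medians were 0.13 (endoglin siRNA arrays) and 0.08 (untreated arrays). The summed level of that list was 5045 and 4923 in the pools, against 5055 and 5186 in the 1-animal RNA. Of 7 endothelial markers, Kdr and Fcgr2b were at least 2-fold lower in the pool in both pairs. Of 4 cholangiocyte markers, Krt7 was higher in the pool (3.14 and 3.41 on the log2 scale) and Spp1 lower (-2.79 and -2.44), with list medians of -0.10 and -0.14. Among 14 stellate cell markers Lum was higher in the pool (1.38 and 1.36) and Lrat lower (-1.61 and -1.66). The part of these cells in the levels of Fbln2, Ltbp2 and Fbn1 was not tested.

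**Figure D4:**
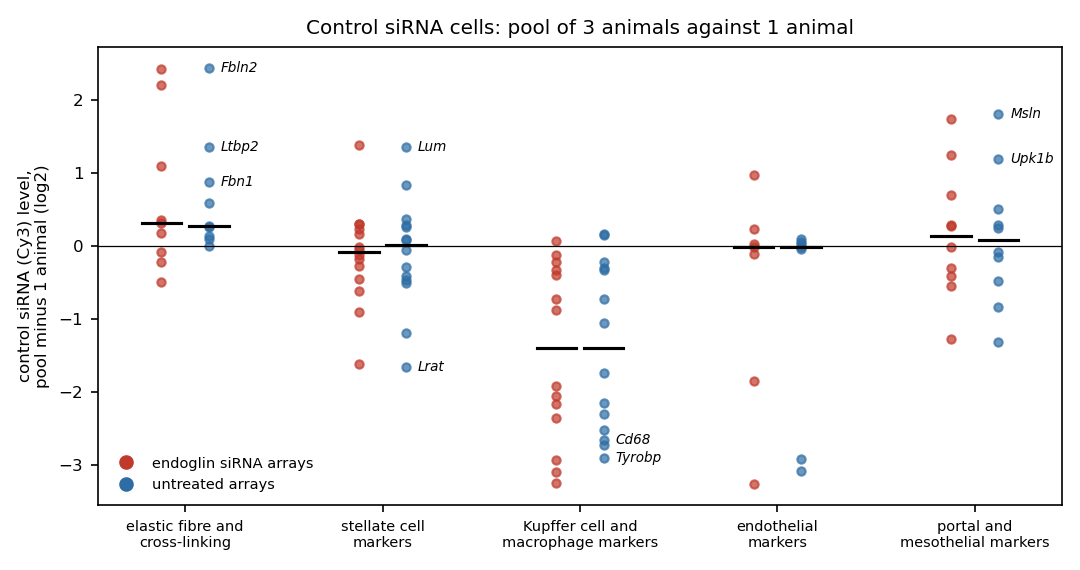
Difference of the control siRNA (Cy3) level between the pool of 3 animals and 1 animal (log2, vertical axis) for the 9 genes and for 4 lists of cell markers; red points are the endoglin siRNA arrays, blue points the untreated arrays, and bars are medians. Fbln2 and Ltbp2 lie above 1 in both pairs, and the Kupffer cell and macrophage markers have medians of -1.40.

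Likeness was the Euclidean distance between log2 ratios over the 4 arrays. It was ranked among genes matched to the RefSeq table, leaving out placeholder symbols (LOC or RGD numbers). The genes with the pattern most like that of Fbln5 were Col11a1 (a distance of 0.21), Rapgef5 (0.23) and Omd (0.28). Those most like Tgm2 were Ptgis (0.61), Them5 (0.70) and Cthrc1 (0.87). These are descriptions over 4 arrays, and the ratios of any pair of arrays had a positive correlation across genes (0.34 to 0.63).

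The size of the ratios depended on the processing. Across 14 alternative settings the ratio of endoglin siRNA to control siRNA cells ranged from -2.26 to -0.21 for Tgm2, from -1.68 to -0.22 for Ltbp2, from -1.54 to -0.35 for Mfap4 and from 0.55 to 1.99 for Fbln5. These 4 genes kept their sign in all 14 settings, and so did Fbln2 (-1.37 to -0.04). Fbn1, Lox and Mfap5 kept it in 13, the exception being median centring. Eln kept it in 12. No gene of the array passed limma's test in endoglin siRNA cells with Feature Extraction's own ratios, with the deposited table, with median centring or with scaling between arrays; genes with an unadjusted p under 0.05 then numbered 7107, 7105, 6209 and 1423. Every call named above therefore ends under these 4 settings.

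**Figure D5:**
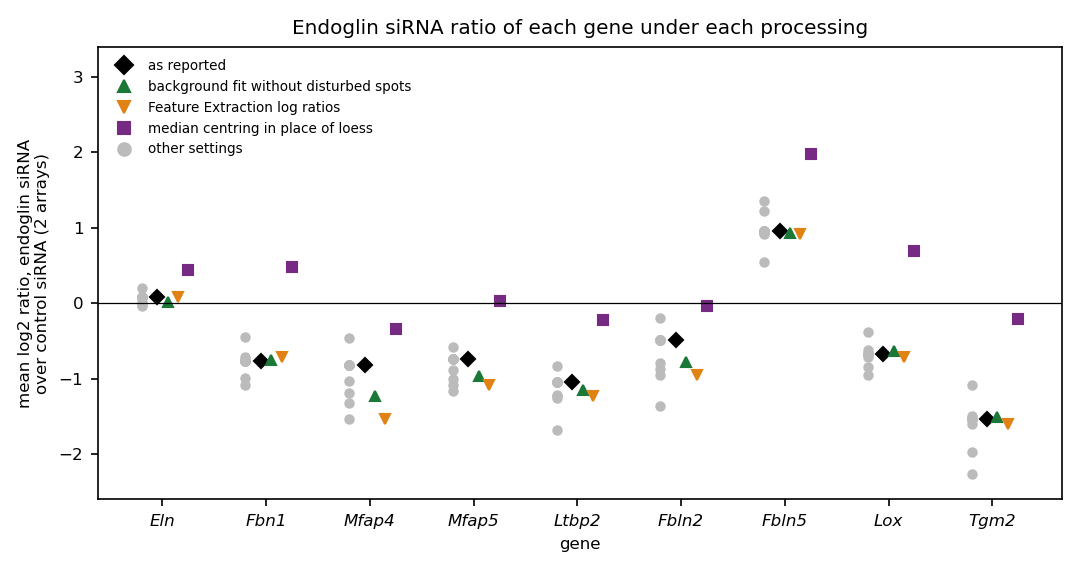
Log2 ratio of endoglin siRNA over control siRNA cells for each gene under the reported setting (black) and the 14 alternatives; grey points include settings that leave out 1 array. Median centring (purple squares) lies above all other settings for every gene and turns Fbn1, Mfap5 and Lox to positive values.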

How the data were processed

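The 9 genes and the other lists were chosen with earlier results of these arrays known. Per the file headers, the authors used version 9.5.1.1 of Agilent Feature Extraction; Rosetta Resolver is named in the labels. The deposited scanner files give linear intensity for each dye (mean and local background), and a log10 ratio of Cy5 to Cy3. The separate value table of the authors is also in log10, turned in sign on both untreated arrays relative to the dyes.

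With limma 3.58.1 in R 4.3.3, intensities were corrected by normexp (offset 50), ratios were normalized by loess within arrays with controls at weight 0, and spots of a probe were averaged. Probes well above background in at least 1 dye on 2 or more arrays, with a ratio on all 4, were kept (29860), and the brightest stood for each gene name. Of the 25546 names, 12136 matched the RefSeq GRCr8 gene table. A model of 2 group means with Benjamini-Hochberg adjustment at 0.05 over all genes gave 3 comparisons, those of endoglin siRNA and of untreated cells with control siRNA cells, and that between the first 2. Levels per dye were quantile-normalized on mean brightness (Aquantile). All 4 arrays shared 1 slide and 1 scan, with no dye swap, so none of these could enter the fit. The fit was tested on simulated data. Named besides the members were Eng and, per list and comparison, up to 4 genes per direction that passed or else the 2 largest. For likeness the 3 nearest were named, among genes matched to the RefSeq table and without placeholder symbols. Cell markers were named where they passed in a comparison, or differed with the RNA source. Alternatives concerned background, normalization, probe filter, probe choice, deposited ratios, an RNA-source block and leaving out each array.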

Additional observations from a re-analysis of the deposited data

Results flagged for a closer look

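In 4 genes the arrays of 1 animal and of the pool pointed in opposite directions under the same comparison, with 1 array for each RNA source, and the difference between the sources was not tested. Against control siRNA, untreated cells had 0.13 (1 animal) and -0.85 (pool) for Fbln2, and 0.20 and -0.59 for Tgm2. Smaller opposite values in that comparison were those of Eln (0.086 and -0.07) and Mfap5 (0.053 and -0.06). In endoglin siRNA cells Eln read 0.20 for 1 animal and -0.04 for the pool. Between endoglin siRNA and untreated cells Fbln2 differed by -0.32 for 1 animal and 0.06 for the pool.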

How the results depend on the processing

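Endoglin siRNA against control siRNA gave 2071 genes past the threshold, untreated against control siRNA 178, and endoglin siRNA against untreated 22. Without background correction these counts were 4510, 513 and 168, and without the disturbed spots 4154, 464 and 198. They were 0 in all 3 comparisons with Feature Extraction log ratios (7107, 3332 and 2779 at an unadjusted p under 0.05), with the deposited table turned to the dyes (7105, 3333 and 2775), with median centring (6209, 73 and 261) and with scaling between arrays (1423, 583 and 352). Without the filter on dim probes the last 2 comparisons gave 356 and 48. With the RNA source as a replicate block the counts were 3779, 949 and 230. Nothing is read from calls of the members here, since these were chosen with their ratios known. Among the genes named, the block added calls of Fbln2 (lower) in endoglin siRNA cells, of Fbln2 (lower), Lox, Ltbp1, Ltbp4 and Loxl1 (higher) in untreated cells, and of Fbn1, Lox, Ltbp2, Mfap5, Adamtsl2, Emilin1, Loxl1 and Eng (lower) between endoglin siRNA and untreated cells. The labels do not say that arrays of 1 source came from the same animals, so the pairing is not given by the design; their deviations from the group means correlated at 0.29 across genes. Leaving out 1 array at a time gave 815 to 2618, 0 to 736 and 0 to 424 genes. In the first comparison 815 came without the 1-animal endoglin siRNA array, 1203 without either untreated array and 2618 without the pooled endoglin siRNA array. In the second, 736 came without either endoglin siRNA array, 34 without the 1-animal untreated array and 0 without the pooled one. In the third, 424 came without the pooled and 51 without the 1-animal endoglin siRNA array, and 1 and 0 without the 1-animal and the pooled untreated array. Where 1 array remained in a group, it was assumed to vary like the other group's arrays.

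Median centring turned these ratios of endoglin siRNA to control siRNA cells: Fbn1 to 0.48, Mfap5 to 0.033, Lox to 0.69, Emilin1 to 0.79, Adamtsl2 to 0.83, Efemp2 to 0.93, Pxdn to 0.52, Plod2 to 0.60, Loxl1 to 0.97, Plod1 to 0.98 and Neu1 to 0.44. Between endoglin siRNA and untreated cells it turned Adamtsl2 to 0.42, Emilin1 to 0.43, Loxl1 to 0.33 and Pxdn to 0.48. In untreated cells Pcolce stood at -4e-04 with Feature Extraction log ratios and -3e-04 with the deposited table. The cause was not tested. Low brightness limits Eln and both Fbln2 probes on the 1-animal arrays.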
